A study of Mus musculus with 2 samples.

Results

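The stretch described here lies on the lower-coordinate side of the Jun promoter on mouse chromosome 4, from 160 to 620 kb away, and holds the genes Tek, Lrrc19, Ift74, Plaa and Caap1. Its contacts with Jun were read by 4C-seq, a circular form of chromosome conformation capture, in primary mouse bone marrow-derived macrophages of strain C57BL/6. These are untreated, genetically unmodified cells differentiated from marrow with L929-conditioned medium, at day 7. The study has 1 library each for viewpoints at the starts of Jun and of Ccl2, and the labels do not say whether marrow of several animals was pooled. The members are the DpnII fragment ends that have 1 copy in the genome and lie between positions 94101073 and 94561072 of chromosome 4 in mm9, measured from a viewpoint at 94721073. There are 1543 such ends, of 496746 unique ends on chromosome 4 in the Jun library and 921359 in both libraries together. Counting every fragment, with or without a unique end, the stretch holds 1165. The member ends were chosen by position and copy number alone, not by their reads. The stretch was compared in its 2 sections, the Tek section from 160 to 320 kb with 507 ends and the Lrrc19 to Caap1 section from 320 to 620 kb with 1036 ends.

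In 4C-seq, cross-linked chromatin is cut with DpnII and ligated, and inverse PCR from the viewpoint recovers the DNA joined to it. A read on a fragment end therefore comes from a ligation between that end and the viewpoint, though several reads may be PCR copies of the same ligation. Contacts usually thin out with distance along the chromosome. Chromosomes are folded into contact domains, within which loci touch each other more often than loci across a domain border. Jun, whose protein is one of the partners that form AP-1, is an early-response gene in macrophages, and is transcribed towards the stretch. Tek encodes Tie2, the angiopoietin receptor known best from endothelial cells and also carried by some monocytes. Of its neighbours, Lrrc19 encodes a leucine-rich repeat membrane protein, Ift74 a subunit of the intraflagellar transport machinery of cilia, Plaa a ubiquitin-binding cofactor of p97, and Caap1 an inhibitor of caspase activity and apoptosis. In GRCm38.p6 gene order Mysm1, a histone H2A deubiquitinase gene, and Eqtn, an acrosomal membrane protein gene, separate Jun from Tek.

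The deposited profile names no gene, so gene starts were looked for by sequence. The RefSeq promoter windows of GRCm38.p6 (250 bases before to 50 after a start) were searched for GATC, the DpnII site, and GTAC, the site whose spacing fits the lengths to the second cutter in the profile. Both motifs read the same on both strands and cannot overlap each other. Of all 32851 windows, 48.0% held GATC and 35.8% held GTAC. All 5 genes named for the stretch had a window, and Gm12657, a further protein-coding gene of RefSeq that overlaps Plaa, was not placed. The 250 bases before the start are shown, 5′ to 3′ on the gene's strand, for the 4 genes whose sites gave a match, with both motifs in capitals, since these sites decide what 4C-seq can see of each promoter. They are chr4:94739039-94739288 for Tek (plus strand), chr4:94614241-94614490 for Ift74 (plus strand), chr4:94603248-94603497 for Plaa (minus strand) and chr4:94556797-94557046 for Caap1 (minus strand), all in GRCm38.p6.
Tek: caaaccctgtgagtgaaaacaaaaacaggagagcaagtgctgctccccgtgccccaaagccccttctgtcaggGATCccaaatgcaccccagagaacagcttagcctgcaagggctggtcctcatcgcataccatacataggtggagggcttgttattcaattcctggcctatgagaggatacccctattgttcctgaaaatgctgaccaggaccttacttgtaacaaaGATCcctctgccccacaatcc
Ift74: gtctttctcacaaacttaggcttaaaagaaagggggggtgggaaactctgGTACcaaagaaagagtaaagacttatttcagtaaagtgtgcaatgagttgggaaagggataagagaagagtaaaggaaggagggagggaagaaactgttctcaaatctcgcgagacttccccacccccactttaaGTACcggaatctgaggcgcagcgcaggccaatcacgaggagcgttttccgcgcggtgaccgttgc
Plaa: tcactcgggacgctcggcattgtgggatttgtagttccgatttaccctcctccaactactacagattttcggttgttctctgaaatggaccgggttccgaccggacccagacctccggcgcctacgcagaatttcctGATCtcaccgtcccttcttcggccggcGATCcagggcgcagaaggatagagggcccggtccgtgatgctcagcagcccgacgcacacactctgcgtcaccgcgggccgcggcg
Caap1: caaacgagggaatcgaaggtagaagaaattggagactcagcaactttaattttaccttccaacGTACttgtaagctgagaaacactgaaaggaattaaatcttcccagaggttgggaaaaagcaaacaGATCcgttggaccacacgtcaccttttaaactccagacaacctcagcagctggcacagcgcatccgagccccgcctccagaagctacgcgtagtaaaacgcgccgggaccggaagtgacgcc
The Lrrc19 window held neither motif, so that gene was not placed.

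The spacing of these sites was then matched to the fragment lengths of the mm9 profile between 0 and 620 kb on the lower side. The 2 GATC sites of Tek, 156 bp apart, fitted 1 fragment. The GATC of Caap1 with its GTAC 65 bp away also fitted 1 fragment. The 27 bp between the GATC sites of Plaa and the 135 bp between the GTAC sites of Ift74 fitted 2 fragments each. Of these, the one was kept whose distance to the Mysm1 promoter fragment (184 bp between its GATC sites, 1 match) equalled the RefSeq spacing within 16 bp. For Tek and Caap1, whose match did not use the spacing, the distance to the Mysm1 fragment differed from RefSeq by -3 and 0.5 bp, in bins of 16 bp. Mysm1 served as the anchor and Ift74 and Plaa were chosen by their spacing, so they add no check of their own. The Tek start then lay 315 kb from the viewpoint, that of Ift74 at 440 kb, that of Plaa at 451 kb and that of Caap1 at 498 kb. Tek, on the plus strand, is transcribed from there towards Jun. The order and the sections of the placed genes are those named in the rule for the stretch.

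The Jun library held 1098887 reads on unique ends more than 5 kb from the viewpoint, and 8676 of them, 0.790%, lay in the stretch. A read was found on 192 of its 1543 ends, or 12.4% (95% exact interval 10.8 to 14.2%). Of all unique ends of chromosome 4 more than 5 kb from the viewpoint, 1.91% had a read, and of those beyond 10 Mb, 1.09%. The share in the stretch was 11.5 times the share beyond 10 Mb. Counted by fragments in place of ends, 19.7% of the fragments with a unique end had a read on such an end. With 1 library per viewpoint there was no replicate, and hence no test and no p-value. The intervals cover counting error only and treat every end as independent, which ends near each other on the chromosome need not be. Intervals that do not overlap therefore do not stand for a test. Since the protocol mentions no molecular identifiers, reads copied by PCR from the same ligation are not independent either.

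The section nearer to Jun had fewer contacts than the section farther away. In the Tek section 42 of 507 ends had a read, 8.28% (6.04 to 11.0%), and in the Lrrc19 to Caap1 section 150 of 1036 ends had one, 14.5% (12.4 to 16.8%). The difference was 6.19 percentage points and the intervals did not overlap. The Tek section held 1546 reads, 3.05 per end, and the Lrrc19 to Caap1 section 7130 reads, 6.88 per end, a ratio of 2.26 in favour of the farther section. The farther section thus had 82.2% of the reads on 67.1% of the ends. Most of the ratio lay in how many ends were reached, with shares 1.75 times as high, and less in the reads on each covered end, 36.8 on average in the Tek section and 47.5 in the other, 1.29 times as high. The density of unique ends was 3.17 per kb in the Tek section and 3.45 per kb in the Lrrc19 to Caap1 section. The 10 ends of the stretch with the most reads held 20.3% of its reads, and all of them lay in the farther section. Without them the Tek section had 0.583 times the reads per end of the farther section, against 0.443 times with them. Leaving out so few ends can hardly change the shares, and the farther section was then higher by 5.36 percentage points.

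In windows of 20 kb, the Tek section was evenly low. Its 8 windows had a read on 6.32 to 11.5% of their ends, with a median of 8.45%. In the Lrrc19 to Caap1 section the 15 windows ran from 3.51 to 26.8%, and 9 of them lay above the highest window of the Tek section. The 3 highest windows were those from 440 to 460 kb with 19 of 71 ends (26.8%, interval 16.9 to 38.6%), from 480 to 500 kb with 16 of 64 ends (25.0%, 15.0 to 37.4%) and from 420 to 440 kb with 12 of 51 ends (23.5%, 12.8 to 37.5%). The first holds the start of Plaa, the second that of Caap1 and the third, at its far edge, that of Ift74. The 3 lowest were those from 580 to 600 kb with 4 of 114 ends (3.51%), from 180 to 200 kb with 6 of 95 ends (6.32%) and from 280 to 300 kb with 4 of 61 ends (6.56%). Between single windows most intervals overlapped, so the order of neighbouring windows is not fixed.

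**Figure D1:**
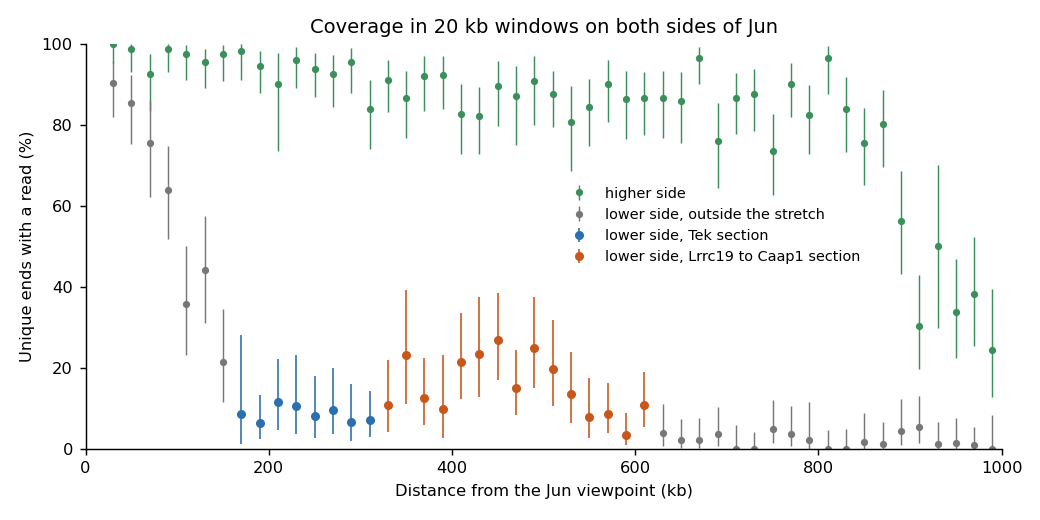
Percentage of unique fragment ends with a read (y axis) in 20 kb windows by distance from the Jun viewpoint in kb (x axis), with exact 95% intervals as bars, on the higher side (green), in the Tek section (blue), in the Lrrc19 to Caap1 section (orange) and on the rest of the lower side (grey). On the lower side the share falls to 6.32 to 11.5% in the Tek section, reaches 26.8% at 440 to 460 kb and falls again, while the higher side stays between 80.6 and 98.4% over the distances of the stretch.

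Of these 9 windows, 6 lay next to each other from 400 to 520 kb, a range chosen after its values were seen. The other 3 were those from 340 to 360 kb with 9 of 39 ends (23.1%, 11.1 to 39.3%), from 360 to 380 kb (12.5%) and from 520 to 540 kb (13.4%), so the range does not hold every high window. The range as a whole had 86 of 398 ends with a read, 21.6% (17.7 to 26.0%), with 4430 reads or 11.1 per end. Nearer to Jun, from 320 to 400 kb, the share was 13.5% (9.14 to 18.9%) with 4.91 reads per end. Farther out, from 520 to 620 kb, it was 8.37% (5.93 to 11.4%) with 3.90 reads per end, close to the share of the Tek section.

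The placed gene starts divide the stretch into intervals that do not depend on a round boundary. From the near edge to the Tek start, which covers the side into which Tek is transcribed, 41 of 483 ends had a read (8.49%, 6.16 to 11.3%). From the Tek start to that of Ift74, an interval with Lrrc19, 54 of 346 ends had one (15.6%, 11.9 to 19.9%). In the 11.2 kb between the starts of Ift74 and Plaa it was 16 of 41 ends (39.0%, 24.2 to 55.5%), the highest share of these intervals. Between the starts of Plaa and Caap1, 31 of 175 ends had a read (17.7%, 12.4 to 24.2%), and from the Caap1 start to the far edge, into which Caap1 is transcribed, 50 of 498 (10.0%, 7.54 to 13.0%). Reads per kb were 9.75 before the Tek start, 19.2 from Tek to Ift74, 49.2 from Ift74 to Plaa, 43.7 from Plaa to Caap1 and 17.8 beyond Caap1. The covered ends between Ift74 and Plaa had few reads each, with a median of 18, against 59 between Plaa and Caap1.

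The surroundings of the starts were compared as well. Within 5 kb of the Tek start 2 of 44 ends had a read (4.55%, 0.555 to 15.5%), with 40 reads in all. Within 5 kb of the Ift74 start 14 of 35 ends had one (40.0%, 23.9 to 57.9%), with 283 reads. Around Plaa it was 7 of 34 ends (20.6%, 8.70 to 37.9%) and 290 reads, and around Caap1 8 of 33 ends (24.2%, 11.1 to 42.3%) and 372 reads. The interval of Tek did not overlap that of Ift74 but overlapped those of Plaa and Caap1. These shares count ends with at least 1 read, and the covered ends at Ift74 had a median of 8.5 reads. At 10 or more reads there were 6 ends at Ift74, 6 at Caap1, 4 at Plaa and 1 at Tek. Within 10 kb, where the surroundings of Ift74 and Plaa share ends, the shares were 6.12% at Tek (2.28 to 12.9%), 34.5% at Ift74 (22.5 to 48.1%), 29.1% at Plaa (19.4 to 40.4%) and 27.8% at Caap1 (16.5 to 41.6%). At that width the interval of Tek overlapped none of the other 3, which overlapped each other. The makeup of these surroundings differed. Within 10 kb, 63.3% of the ends at Tek were on fragments without a second-cutter site. It was 48.3% at Ift74, 59.5% at Plaa and 51.9% at Caap1. Such ends were less often covered in the stretch, and the shares around the starts were not split by kind of fragment. For comparison, 23 of 29 ends within 5 kb of the Mysm1 start, 75.3 kb from the viewpoint and outside the stretch, had a read (79.3%, 60.3 to 92.0%).

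**Figure D2:**
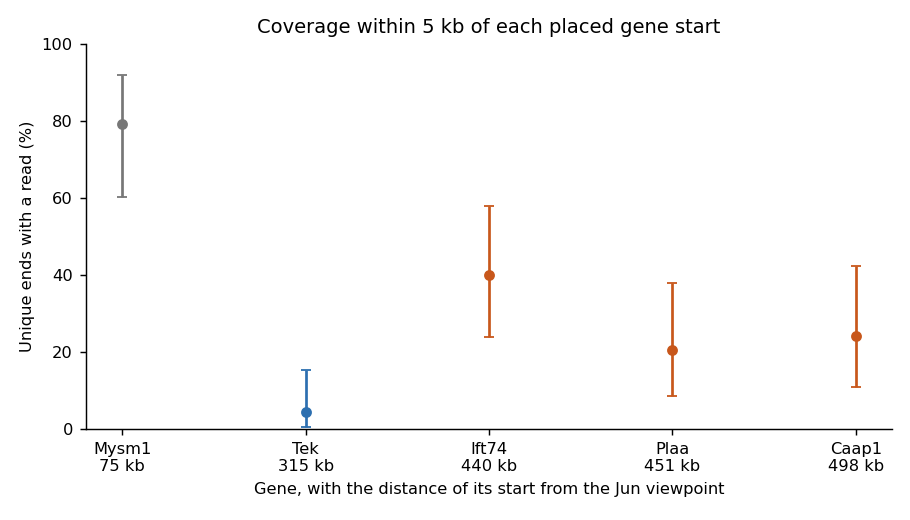
Percentage of unique ends with a read (y axis) within 5 kb of each gene start placed in the profile (x axis, with its distance from the viewpoint), with exact 95% intervals as bars. Mysm1, outside the stretch, stands at 79.3%, Tek at 4.55%, Ift74 at 40.0%, Plaa at 20.6% and Caap1 at 24.2%.

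At the promoter sites themselves, the sequences shown above give the reads end by end. The GATC 177 bases before the Tek start had 34 reads on the end facing away from the gene and 0 on the end facing it. The GATC 21 bases before the Tek start had 0 reads on both ends. At Plaa, the GATC 113 bases before the start had 1 read, on the end facing away from the gene, and the one 86 bases before it had 0 reads on both ends. At Caap1 the GATC 122 bases before the start had 186 reads on the end that faces away from the gene, and this was the fourth-highest count among the ends of its section. From that site to the GTAC in the same promoter is 65 bp. Ift74 has no GATC in its window, and the fragment of 953 bp that spans its promoter had 8 reads on its higher end and 0 on its lower end. Of the 3 placed promoters with a GATC, that of Caap1 thus had the most reads on a site of its own. Each of these counts comes from a single end in 1 library. The ends also differ in kind. The Caap1 end with 186 reads is on a fragment with a second-cutter site inside. The Tek end with 34 reads and the Plaa end with 1 read are on fragments without one. Over the stretch, 18.9% of ends on fragments with such a site had a read, against 6.79% without.

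The 5 ends with the most reads in each section were spread differently. In the Lrrc19 to Caap1 section all 5 lay between 400 and 520 kb. They were the 3′ end of the fragment centred on 94236353 with 219 reads, those of 94298801 with 197, 94299553 with 193 and 94239201 with 179, and the 5′ end of 94224257 with 186, which is the Caap1 site. The 3′ end is the one at the higher coordinate. In the Tek section the highest were the 3′ ends of 94426929 and 94516097 with 134 reads each, the 5′ end of 94435905 with 107, and the 3′ ends of 94531505 with 100 and 94516401 with 77. The last of these and that of 94516097 are 205 kb from the viewpoint on fragments whose centres are 304 bp apart, so they are not separate places. The same holds in the Lrrc19 to Caap1 section for the ends of 94298801 and 94299553, whose fragment centres are 422.3 and 421.5 kb from the viewpoint. Of these 10 ends, 8 had a partner end on the same fragment without a read.

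**Figure D3:**
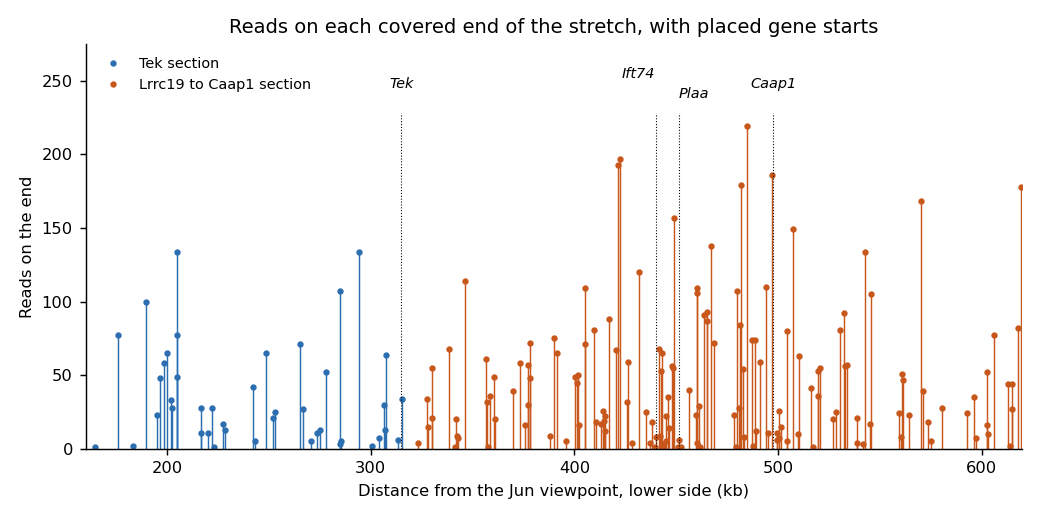
Reads (y axis) on each unique end of the stretch that had a read, by distance from the Jun viewpoint on the lower side in kb (x axis), with the Tek section in blue, the Lrrc19 to Caap1 section in orange and dotted lines at the placed gene starts. The Tek section reaches 134 reads on an end and the Lrrc19 to Caap1 section 219, and the 5 highest ends of the latter lie between 421 and 497 kb.

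Runs of unique ends without a read were found in both sections. Ends with several copies in the genome were left out of these runs, whether or not they had reads. By number of ends, the longest run held 72 unique ends over 12.6 kb, at positions 94128113 to 94140689, beyond Caap1. The next held 39 ends over 8.06 kb, at 94397617 to 94405681. It lies before the Tek start, from the fragment next to the GATC 177 bases before it out to 323 kb. The third held 38 ends over 8.70 kb, at 94243681 to 94252385, between the starts of Plaa and Caap1. In kb, 2 runs with fewer ends were longer than the first of these, 1 of 13.4 kb with 34 ends at 94162033 to 94175409, beyond Caap1, and 1 of 12.6 kb with 28 ends at 94478993 to 94491601, in the Tek section.

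The reads on covered ends of the stretch were few. Their median was 29.5 (quartiles 11 and 65), with 27.5 in the Tek section and 33 in the Lrrc19 to Caap1 section. The median was 28 on the covered ends beyond 10 Mb, 74 on the lower side from 20 to 160 kb and 112.5 on the higher side over the distances of the stretch. Of the 192 covered ends, 12 had 1 read, 148 had 10 or more and 23 had 100 or more. The covered ends were also scattered. Among the 638 fragments with both ends unique, 14 had a read on both ends, 130 on 1 end and 494 on neither. The partner of a covered end was covered in 17.7% of cases and the partner of an end without a read in 11.6%. On the higher side at the same distances these were 92.1% and 65.3%, and beyond 10 Mb 2.83% and 1.03%.

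The kind of fragment moved with coverage. As background, a fragment with a second-cutter site inside can be trimmed and closed to a small circle, while one without a site cannot be cut by that enzyme. In the stretch, 136 of 718 ends on fragments with such a site had a read (18.9%, 16.1 to 22.0%), against 56 of 825 ends on fragments without one (6.79%, 5.17 to 8.72%). The median on the covered ends was 44.5 and 9.5 reads. Both sections showed this. In the Tek section the shares were 12.7% (8.63 to 17.9%) with a site and 4.88% (2.69 to 8.05%) without, and in the Lrrc19 to Caap1 section 21.7% (18.1 to 25.6%) and 7.81% (5.68 to 10.4%). Beyond 10 Mb they were 1.63% and 0.631%. Fragments without a site made up 56.6% of the ends in the Tek section and 51.9% in the other, a difference of makeup that the values within each kind leave out. The farther section was higher by 8.96 percentage points on ends with a site, where the intervals just failed to overlap. On ends without a site it was higher by 2.93 points, where the intervals overlapped, and the Tek section had 0.744 times the reads per end of the farther section there, against 0.443 times over all ends.

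**Figure D4:**
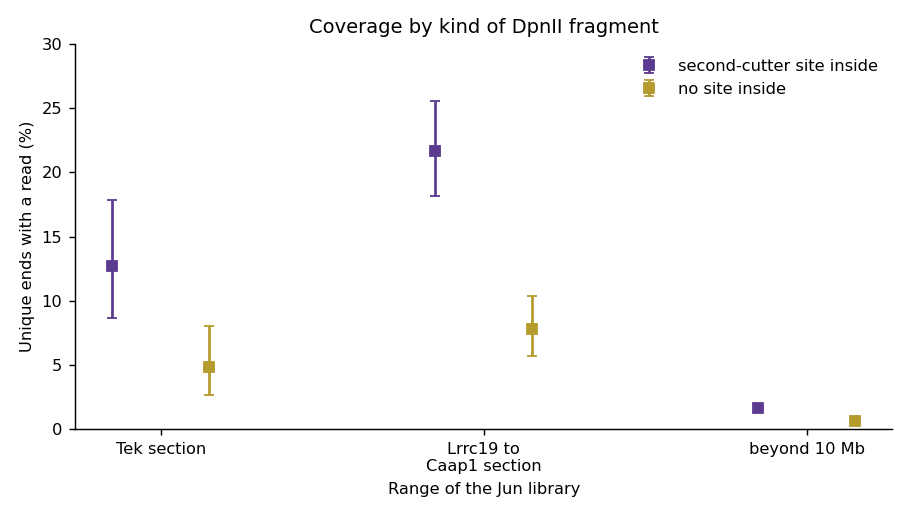
Percentage of unique ends with a read (y axis) on DpnII fragments with (purple) and without (yellow) a second-cutter site inside, in the Tek section, the Lrrc19 to Caap1 section and beyond 10 Mb of the Jun library (x axis), with exact 95% intervals as bars. Ends on fragments with a site stand at 12.7%, 21.7% and 1.63%, and those without at 4.88%, 7.81% and 0.631%.

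By the way to the second cutter, ends up to 50 bp from the site had a read in 22.3% of 94 cases, those from 50 to 100 bp in 19.5% of 133, those from 100 to 300 bp in 19.9% of 276, those from 300 to 600 bp in 17.0% of 165 and those farther away in 12.0% of 50 (interval 4.53 to 24.3%). These intervals overlapped. Mean reads per end were 13.8 from 100 to 300 bp and 0.640 beyond 600 bp. By fragment length, the share was 4.04% of 297 ends up to 100 bp, 10.2% of 235 from 100 to 200 bp, 13.4% of 389 from 200 to 400 bp, 16.1% of 404 from 400 to 800 bp and 17.9% of 218 above. Length went together with the kind of fragment. Of ends up to 100 bp 94.6% had no second-cutter site, and of those above 800 bp 7.34%. In the same order of length, the shares without a site were 4.27, 7.73, 10.6, 4.58 and 6.25%. With a site they were 0, 18.5, 16.8, 21.6 and 18.8%, so neither kind rose steadily. The 3′ and 5′ ends had a read in 12.7% and 12.2% of cases.

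Against its surroundings the stretch stood between a well-covered and a nearly empty range. On the lower side from 20 to 160 kb, which holds Mysm1, 62.6% of 455 ends had a read (58.0 to 67.1%), with 95.4 reads per end. From 620 to 1000 kb 2.09% of 1434 ends had one (1.42 to 2.97%), with 0.725 reads per end. At the limits of the stretch, 21.4% of 56 ends had a read from 140 to 160 kb and 8.70% of 23 ends from 160 to 180 kb, while it was 10.8% of 93 ends from 600 to 620 kb and 3.90% of 77 ends from 620 to 640 kb. The mirror range of the stretch on the higher side was covered at 89.3% of its 1722 ends (87.8 to 90.7%), and its 309929 reads were 35.7 times those of the stretch. The ratio was 90.6 for the distances of the Tek section and 23.8 for those of the Lrrc19 to Caap1 section.

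Among the 4 profiles at hand (both sides of both viewpoints), the lower side of Jun was the only one in which the farther range was covered more. On the higher side of Jun the share was 93.2% from 160 to 320 kb (90.8 to 95.1%) and 87.3% from 320 to 620 kb (85.2 to 89.2%). From Ccl2, on chromosome 11, it was 15.0% (12.6 to 17.6%) and 7.04% (5.69 to 8.59%) on the lower side and 20.9% (18.0 to 24.0%) and 9.61% (8.05 to 11.4%) on the higher side. The Jun stretch had 8.28% and 14.5%, so from 160 to 320 kb it was below both sides of Ccl2 and from 320 to 620 kb above both. The Ccl2 library had 1.92% of unique ends more than 5 kb away with a read, close to the Jun library, and 901507 reads on them. With 1 library for each viewpoint this difference was not tested, and viewpoint, chromosome and library cannot be told apart.

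**Figure D5:**
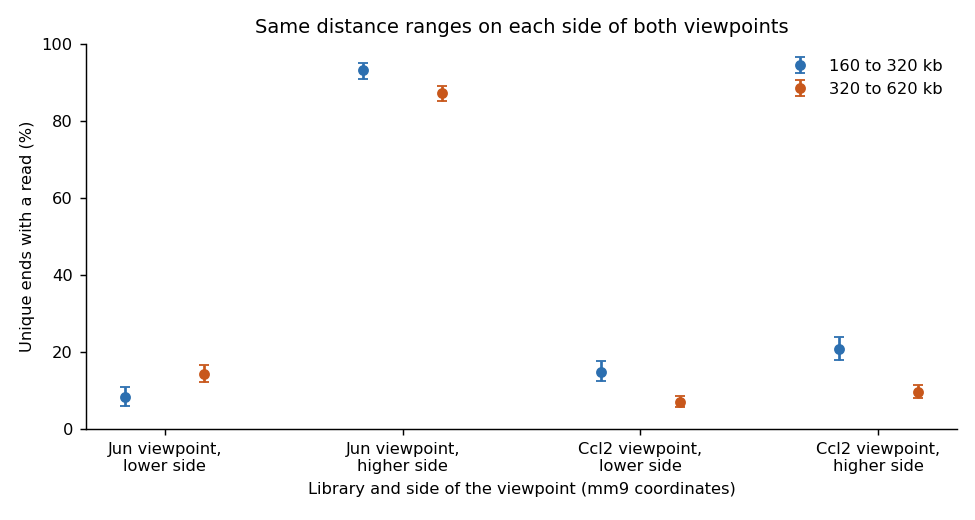
Percentage of unique ends with a read (y axis) at 160 to 320 kb (blue) and 320 to 620 kb (orange) on each side of the Jun and Ccl2 viewpoints (x axis), with exact 95% intervals as bars. The lower side of Jun rises from 8.28 to 14.5%, and the 3 other profiles fall.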

How the data were processed

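4C-seq libraries of 1 Jun and 1 Ccl2 viewpoint were used. The deposited files, on mm9 per the submitters' processing notes, give 2 values per DpnII fragment, which were read as estimated counts of reads per end, not scaled to depth, since 72.8% of low values (0.05 to 10) on unique Jun ends lie within 0.1 of a whole number. Aligner and counter: neither is given in the sources used here. Multiplicity, the length of the fragment and the distances to the second cutter stand beside them per the file headers, whose names are 1 column to the right of their values. Estimated counts were rounded, and ends with multiplicity 1 were used. Positions are fragment centres in 16 bp bins. The first fragment of each chromosome has a value for its 3′ end only, which makes that the higher end. An end was covered with at least 1 read.

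Shares have exact Clopper-Pearson 95% intervals (scipy 1.17.1, Python 3.11.15). The summary code was tested on simulated data. The stretch, sections, genes and alternatives were chosen with earlier results of these data known, and the placing of gene starts, the range from 400 to 520 kb, the surroundings of 10 kb and the split by second-cutter site within each section were added after the values were seen. Named were, by rule, the 5 ends with the most reads per section, the 3 highest and 3 lowest windows and the 3 longest runs of ends without a read by number of ends. Alternatives were the read minimum, rounding, multiplicity, end, position, section boundary, fragment length, the highest ends, fragments as units and the kind of fragment.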

Additional observations from a re-analysis of the deposited data

Results flagged for a closer look

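Fragment ends whose sequence occurs more than once in the genome were left out of the values above, yet they carried reads in the stretch. Of 231 such ends 34 had a read, 14.7% (exact 95% interval 10.4 to 20.0%), where a count of 0 would allow up to 1.30%. The share was 16.9% of 65 ends in the Tek section (8.76 to 28.3%) and 13.9% of 166 in the Lrrc19 to Caap1 section (8.99 to 20.1%), and the intervals overlapped, so the order of shares seen on unique ends was not seen here. Reads per end were 4.00 in the Tek section and 5.54 in the other, the same order as on unique ends. Beyond 10 Mb 2.62% of such ends had a read. Their reads may come from any of their copies.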

How the results depend on the processing

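The farther section had the higher share of covered ends and more reads per end under all 15 alternatives run. The difference, Tek section minus Lrrc19 to Caap1 section, ran from -8.96 to -2.93 percentage points, and stayed within the counting interval of the main value (-9.41 to -2.74). The shares themselves moved with what counts as covered. With at least 10 reads per end they were 9.59% in the stretch and 11.2% in the Lrrc19 to Caap1 section. On fragments of at least 200 bp they were 15.4% and 17.9%. Counted by fragments, the stretch, the Tek section and the Lrrc19 to Caap1 section stood at 19.7%, 13.8% and 22.4%, with a second-cutter site at 18.9%, 12.7% and 21.7%, and without one at 6.79%, 4.88% and 7.81%. The ratio of reads per end, Tek section over the other, was 0.443 (0.419 to 0.468) and moved beyond that interval to 0.471 with ends of any multiplicity, 0.538 on 3′ ends, 0.337 on 5′ ends, 0.478 and 0.527 with the boundary at 390 and 300 kb, 0.583 without the 10 highest ends and 0.744 without a second-cutter site. The interval of the ratio is an exact binomial one that treats every read as independent. Reads share ends and may be PCR copies, so it is too narrow, and a move beyond it is a low bar. Depth limits single windows, which held 23 to 114 ends, and single promoters, which rest on 2 to 4 ends. No paired analysis was possible because there was 1 library per viewpoint.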
